A study of Mus musculus with 6 samples.

Results

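Transcripts of 10 transcription factors of endothelial cells (ECs) were measured in cells sorted as peritoneal ECs from mice given peritoneal dialysis (PD) fluid or saline. Leukocyte transcripts were high in every library, as given below, so the values are those of a mixed population. They are 4 factors of the ETS family (Erg, Fli1, Ets1 and Ets2), the 3 SOXF factors (Sox7, Sox17 and Sox18), and Tal1, Lmo2 and Gata2. The factors were taken from the table by symbol. Each symbol had 1 row in the deposited table, so the 10 factors are 10 of its 22183 genes, and all of them passed the filter on low counts that left 14005 genes for testing. The 3 saline mice received intraperitoneal saline for 6 weeks, and the 3 PD mice received glucose-based PD fluid by the same route over the same time. All animals were wild type, described by the study as adult male C57BL/6J mice, and 1 library was sequenced per mouse. Whether the mice of a group were treated or processed together is not given, and the p-values measure the spread between these mice.

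ETS factors bind short DNA elements centred on GGA through a shared domain, and many genes that set endothelial identity carry such elements. ERG and FLI1 maintain the expression of VE-cadherin and other junction proteins in adult ECs, and ETS1 and ETS2 act downstream of growth factor signalling, with ETS1 also abundant in lymphocytes. The SOXF factors bind DNA through a high mobility group box, with roles in arterial fate for SOX17 and in lymphatic fate for SOX18. TAL1 and GATA2 bind E-boxes and GATA elements, and LMO2, which does not bind DNA itself, bridges them in a complex known from blood and endothelial progenitors.

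On GRCm38 with the GENCODE M21 annotation, all 10 are protein-coding genes. Fli1 (chr9:32422204-32542861, minus strand) and Ets1 (chr9:32636221-32757820, plus strand) lie head to head, 93.4 kb apart with 0 protein-coding genes between them. Erg (chr16:95359169-95586593, minus strand) and Ets2 (chr16:95702075-95721051, plus strand) lie in the same arrangement, 115.5 kb apart and again with 0 protein-coding genes between. Sox7 is on chr14:63943673-63950732 (plus), Sox17 on chr1:4490931-4497354 (minus) and Sox18 on chr2:181669836-181671640 (minus). Tal1 is on chr4:115056426-115071755 (plus), Lmo2 on chr2:103957986-103981878 (plus) and Gata2 on chr6:88193891-88207032 (plus). Lmo2 overlaps 4931422A03Rik on the opposite strand, which had 45 counts over all 6 mice against 4061 for Lmo2 in the first saline mouse alone. The longest exact stretch between transcripts of different factors was 40 bases, shared by Erg and Ets1, followed by 29 bases between Sox17 and Sox18. Longer stretches were shared with other genes: 129 bases of Fli1 with Gm11027, 82 of Erg and of Ets1 with Dcaf1, and 58 of Sox7 with Vmn2r8. Their effect on the counts was not tested.

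RefSeq promoters on GRCm38.p6 were at hand for 4 of the 10 factors (Erg, Ets2, Tal1 and Gata2), with 8 start sites in all. The 250 bases before each start were searched on both strands for elements of these families. The ETS element was spelled AGGAAG, which holds the GGA core of the family. For GATA factors the letters AGATAA were searched, since their zinc fingers read such a core. The SOX search used AACAAT, a form of the box that high mobility group domains bend. E-boxes, where helix-loop-helix pairs bind, were spelled CANNTG. Of all 32851 promoters of this length, 29.5% held the ETS letters, 9.99% the GATA letters, 9.42% the SOX letters and 66.2% an E-box. A start site inside Erg and the first start of Tal1 were those with a match, and they are shown because they hold elements that ETS, SOX, GATA or helix-loop-helix factors bind. Both windows are printed along their gene's own strand, with every match in capitals.
Erg, chr16:95459349-95459598, minus strand: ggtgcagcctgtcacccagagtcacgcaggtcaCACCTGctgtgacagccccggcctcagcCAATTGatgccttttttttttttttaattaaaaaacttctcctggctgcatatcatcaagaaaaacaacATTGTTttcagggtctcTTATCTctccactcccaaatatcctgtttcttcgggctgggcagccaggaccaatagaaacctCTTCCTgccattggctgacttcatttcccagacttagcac
Tal1, chr4:115056176-115056425, plus strand: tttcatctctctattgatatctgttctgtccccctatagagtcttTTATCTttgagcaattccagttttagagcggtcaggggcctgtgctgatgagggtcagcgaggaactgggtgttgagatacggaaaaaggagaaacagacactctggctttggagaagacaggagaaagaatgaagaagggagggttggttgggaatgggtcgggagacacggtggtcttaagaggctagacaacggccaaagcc
The Erg window held 1 ETS, 1 GATA and 1 SOX match and 2 E-boxes, none of which overlapped another. The Tal1 window held 1 GATA match, which reads TTATCT on the printed strand. No match was found in the other 2 windows of Erg, the other window of Tal1, the window of Ets2 or the 2 windows of Gata2. A match describes letters only, and binding was not measured.

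The libraries held 21973426 to 26374292 counts on genes per mouse. Levels are given as CPM (counts scaled to a library of fixed size) after TMM scaling, and each change is a log2 fold change of PD mice over saline mice from edgeR's quasi-likelihood test, with its standard error and a Benjamini-Hochberg adjusted p. Cdh5 (VE-cadherin), which defines ECs, ran from 16.5 to 21.9 CPM in the saline group and from 32.2 to 34.0 CPM in PD mice. Pecam1, the CD31 antigen used for the sort, ran from 458 to 491 CPM and from 504 to 519 CPM. Ptprc, the CD45 antigen of leukocytes, was at 2300 to 2520 CPM in the saline group and 1400 to 1530 CPM in PD mice. The labels describe magnetic sorting of CD31+ cells, and the study's supplement describes sorting of CD31+ CD45- cells by flow cytometry. In bulk samples such as these, fewer cells of a type and less RNA per cell cannot be told apart.

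Lists of 8 marker genes for other cells moved with the treatment, and none of their genes was at 0 in every mouse. The B cell list was lower in PD mice for 8 of 8 genes, with a summed level of 5770 to 6060 CPM in the saline group and 2710 to 2740 CPM in PD mice. Macrophage and dendritic cell markers were higher for 8 of 8 genes (2110 to 2240 CPM against 8500 to 9130 CPM), as were those of lymphatic endothelium (229 to 249 CPM against 1050 to 1190 CPM), mesothelium (12.6 to 16.4 against 143 to 164 CPM) and fibroblasts (95 to 103 against 853 to 889 CPM). Of the leukocyte markers, 5 were lower and 1 higher (9730 to 10000 against 7900 to 7960 CPM), and of the T and NK cell markers 5 were lower and 1 higher (2610 to 2660 against 2090 to 2300 CPM). The pericyte and smooth muscle list was higher for 7 of 8 genes (285 to 309 against 436 to 485 CPM), and the mast cell list for 7 of 8 genes (248 to 256 against 388 to 438 CPM). In the neutrophil list, 6 of 7 tested genes were higher (17.9 to 21.1 against 320 to 359 CPM). All 7 tested genes of the pancreatic acinar list were higher, with a summed level of 1.09 to 3.09 CPM in the saline group and 6070 to 6790 CPM in PD mice. Of 4 tested platelet markers, Pf4 was higher, and the list summed to 36.9 to 39.1 CPM in saline mice and 98.3 to 105 CPM in PD mice.

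All 10 factors differed between the groups, 7 of them higher and 3 lower in PD mice, and for none of the 10 did a PD mouse fall within the saline range. Among all 14005 tested genes, 31.1% were called higher, 27.8% lower and 58.9% in either direction, and 65.6% did not overlap between the groups. A call for a single factor is therefore common in these data. The median log2 fold change of the 10 factors was 0.84, against 0.02 over all tested genes. The 3 factors that fell, Ets1, Fli1 and Lmo2, were the 3 with the highest levels per length by the FPKM given below, and the 7 that rose included Erg and the 3 SOXF factors.

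**Figure D1:**
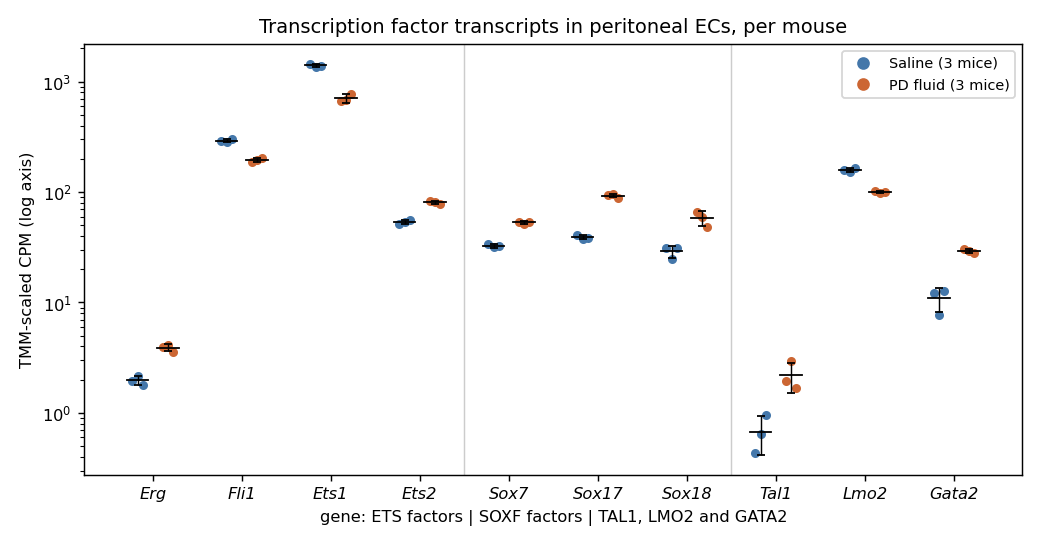
TMM-scaled CPM of each factor on a log axis in the 3 saline mice (blue) and the 3 PD mice (orange), with the group mean as a bar and the SD as an error bar. Ets1, Fli1 and Lmo2 sat lower in PD mice and the other 7 factors higher, without overlap between the groups.

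The direction of Ets2 and Sox7, and the call of Erg, Sox18 and Tal1, depended on what the libraries were scaled to. With the libraries scaled to 12 endothelial markers instead, which themselves rose in PD mice for 11 of 12 genes, the median of all genes moved to -0.90 on the log2 scale and calls split into 1258 higher and 9883 lower genes, against 4359 and 3887 with TMM. Of the factors, 2 were then higher, Sox17 and Gata2. Ets1, Fli1, Lmo2 and Ets2 were lower, and the other 4 did not pass. Ets1, Fli1 and Lmo2 kept their direction and moved to -1.90 ± 0.10, -1.50 ± 0.09 and -1.57 ± 0.09 (SE; edgeR, adjusted p = 2e-10, 6.6e-10 and 3e-10). Changes below are given with TMM, and for the other 7 factors the value under the endothelial scaling follows.

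**Figure D2:**
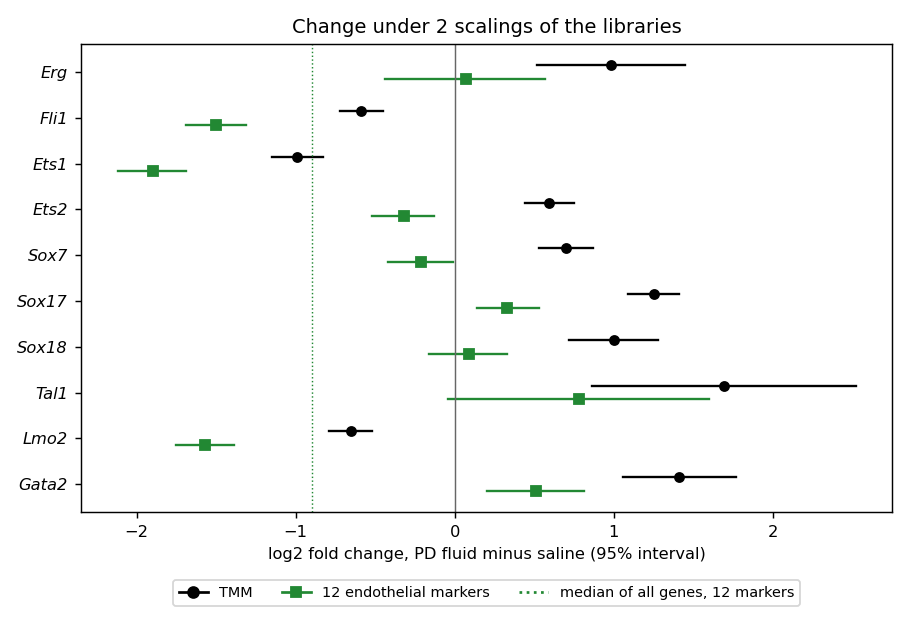
Log2 fold change of each factor in PD mice over saline mice (x axis) with its 95% interval, after TMM scaling (black circles) and after scaling to 12 endothelial markers (green squares). The dotted line marks the median of all genes under the second scaling, -0.90. Ets2 and Sox7 lay above 0 with TMM and below 0 with the endothelial scaling.

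Ets1, the most abundant of the 10 factors by FPKM, fell in PD mice. It measured 1460, 1370 and 1390 CPM in the 3 saline mice and 663, 684 and 777 CPM in the 3 PD mice. The groups stood apart, with the lowest saline mouse well above the highest PD mouse. The fold change was -0.99 ± 0.07 (SE; edgeR, adjusted p = 7.9e-07), a 1.99-fold lower level, and 18.3% of tested genes had a larger change in either direction.

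Its neighbour Fli1 fell as well. Fli1 was at 290, 284 and 301 CPM in the saline group and at 186, 194 and 203 CPM in PD mice. The values within each group lay close together. The change was -0.59 ± 0.06 (SE; edgeR, adjusted p = 1.3e-05). Both Ets1 and Fli1 are also expressed in lymphocytes, and the B cell markers given above fell in the same mice: Cd79a, a chain of the B cell receptor complex, changed by -1.21 ± 0.06 (SE; edgeR, adjusted p = 3.1e-08). The part of these cells in the change of Ets1 and Fli1 was not tested.

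Erg and Ets2 went the other way with TMM scaling. Erg, whose expression in adult tissue is largely that of ECs, was scarce, with 43 to 50 counts in saline mice and 79 to 107 counts in PD mice. In CPM, this was 1.95, 2.17 and 1.78 CPM in the saline group and 3.94, 4.15 and 3.58 CPM in PD mice. Every PD mouse was above every saline mouse. The change was 0.98 ± 0.21 (SE; edgeR, adjusted p = 0.0022), with a 95% interval of 0.52 to 1.45. Under the endothelial scaling it was 0.07 ± 0.24 (SE; edgeR, adjusted p = 0.80).

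Ets2 was at 51.2, 53.4 and 56.0 CPM in the saline group and at 82.5, 81.2 and 78.5 CPM in PD mice. The groups did not overlap, and the change of 0.59 ± 0.07 (SE; edgeR, adjusted p = 3.9e-05) had nearly the size of that of Fli1 with the opposite sign. Scaled to the endothelial markers, Ets2 was lower in PD mice, at -0.32 ± 0.09 (SE; edgeR, adjusted p = 0.0042). Thus each of the head-to-head pairs, Fli1 with Ets1 and Erg with Ets2, moved in 1 direction with TMM. When the endothelial markers set the scale, Ets2 turned and Erg, at 0.07 ± 0.24 (SE), was no longer called.

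The 3 SOXF factors rose together with TMM scaling. Sox17 had the largest change among them. It was at 40.9, 37.9 and 38.2 CPM in the saline group and at 93.9, 95.5 and 89.1 CPM in PD mice. The mice of each group lay within a narrow band and the bands were far apart. The change was 1.25 ± 0.07 (SE; edgeR, adjusted p = 1.3e-07), a 2.38-fold higher level. It remained higher under the endothelial scaling, at 0.33 ± 0.09 (SE; edgeR, adjusted p = 0.0032).

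Sox18, which takes part in lymphatic development, was at 31.0, 24.8 and 31.3 CPM in the saline group and at 65.9, 59.8 and 48.6 CPM in PD mice. It was the most variable of the 3 SOXF factors within both groups, with the second saline mouse and the third PD mouse lowest. The change was 1.00 ± 0.13 (SE; edgeR, adjusted p = 6.1e-05). Its longest transcript has the highest GC content of the 10 factors, 60.9%. Among the libraries, deviations from the mean of the own group fell most with GC content in the second saline mouse (r = -0.38 across genes, a description). Without that mouse the change was 0.90 ± 0.12 (SE; edgeR, adjusted p = 5e-05). Correcting each library for GC content, an alternative added once the data had been seen, lowered the change to 0.50 ± 0.08 (SE; edgeR, adjusted p = 0.00024). That correction was fitted to deviations from the mean of all 6 libraries, so it can also remove a difference between the groups that follows GC content. The cause of the lower value was not tested. With the endothelial scaling the change was 0.09 ± 0.12 (SE; edgeR, adjusted p = 0.49).

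Sox7 was at 34.2, 31.5 and 32.4 CPM in the saline group and at 53.8, 51.5 and 54.1 CPM in PD mice. Both groups were even, and the change was 0.70 ± 0.08 (SE; edgeR, adjusted p = 2.3e-05). The endothelial scaling turned its direction, to -0.21 ± 0.10 (SE; edgeR, adjusted p = 0.051). Within a library, the ratio of Sox17 to Sox7 counts does not depend on scaling, and this pair was set side by side after their values were seen. On the log2 scale the ratio was 0.26, 0.27 and 0.24 in saline mice and 0.80, 0.89 and 0.72 in PD mice, with group means 0.55 apart. Permuting the labels exactly and two-sided gave p = 0.1, the smallest that 3 mice against 3 allow, so no such test can pass 0.05 here.

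Markers of lymphatic endothelium rose with the SOXF factors, by a median of 2.2 on the log2 scale over the list. Prox1, the transcription factor that sets lymphatic identity, was at 4.22, 3.69 and 4.68 CPM in the saline group and at 14.5, 12.8 and 13.8 CPM in PD mice, a change of 1.70 ± 0.15 (SE; edgeR, adjusted p = 3.1e-06). Sox18 fell relative to Prox1, from a mean log2 ratio of 2.78 ± 0.08 (SD, n = 3 mice) to 2.07 ± 0.22 (SD, n = 3 mice; two-sided exact permutation p = 0.1), a pair also chosen after seeing the data. The part of lymphatic ECs in the change of Sox18 was not tested.

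Lmo2, the bridging protein of the complex, was abundant and fell. It was at 159, 151 and 165 CPM in the saline group and at 103, 97.5 and 101 CPM in PD mice. No PD mouse came near the saline range. The change was -0.65 ± 0.06 (SE; edgeR, adjusted p = 8.5e-06). LMO2 is also made in B cells, whose markers fell in the same mice, and their part in this change was not tested.

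Gata2, a zinc finger factor that activates endothelial and haematopoietic genes, rose. It was at 12.3, 7.75 and 12.7 CPM in the saline group and at 30.5, 29.1 and 28.0 CPM in PD mice. The second saline mouse was the lowest of all, and the PD mice were close to each other. The change was 1.41 ± 0.16 (SE; edgeR, adjusted p = 3.1e-05) with TMM and 0.51 ± 0.14 (SE; edgeR, adjusted p = 0.0039) with the endothelial scaling. GATA2 is needed in mast cells too, and Kit and Hdc of the mast cell list rose by 0.83 ± 0.10 (SE; edgeR, adjusted p = 3.2e-05) and 1.90 ± 0.11 (SE; edgeR, adjusted p = 1.4e-07). The part of mast cells in the change of Gata2 was not tested.

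Tal1, the scarcest factor by FPKM, had 11, 14 and 23 counts in saline mice and 53, 70 and 37 counts in PD mice. This corresponded to 0.430, 0.646 and 0.952 CPM in the saline group and 1.95, 2.94 and 1.68 CPM in PD mice. The groups did not overlap, but the spread within each was the widest among the 10 factors. The change was 1.69 ± 0.38 (SE; edgeR, adjusted p = 0.0029), with a 95% interval from 0.86 to 2.52, and 0.78 ± 0.39 (SE; edgeR, adjusted p = 0.074) with the endothelial scaling. TAL1 also acts in red cell precursors. Of their genes, the erythropoietin receptor gene Epor rose by 0.55 ± 0.16 (SE; edgeR, adjusted p = 0.011), whereas the alpha globins Hba-a1 and Hba-a2 changed by -0.34 and -0.35 ± 0.06 (SE; edgeR, adjusted p = 0.001 and 0.00086). The part of red cell precursors in the change of Tal1 was not tested.

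To set the factors against a gene of ECs and a gene of leukocytes within the same library, log2 ratios of counts were formed to Cdh5 and to Ptprc. Relative to Cdh5, Ets1 fell from 6.22 ± 0.20 to 4.40 ± 0.12, Fli1 from 3.95 ± 0.16 to 2.54 ± 0.08 and Lmo2 from 3.07 ± 0.14 to 1.59 ± 0.01 (SD, n = 3 mice). Each of these had no overlap between the groups and p = 0.1 in the two-sided exact permutation test. Ets2 was lower by 0.23, and Sox17, Gata2 and Tal1 were higher by 0.42, 0.62 and 0.87, also without overlap (exact permutation p = 0.1). For Erg, Sox18 and Sox7 the groups overlapped, with differences of 0.15, 0.17 and -0.13 (exact permutation p = 0.7, 0.3 and 0.4). These values depended on the reference gene. Of the 12 endothelial markers, 11 were called higher, with a median change of 0.91 over the 12. Pecam1 was the one not called (0.13 ± 0.06, SE; edgeR, adjusted p = 0.07). With Pecam1 in place of Cdh5, Ets2 was higher by 0.46 and Sox7 by 0.57 rather than lower, and Erg and Sox18 were higher by 0.85 and 0.87, all without overlap (exact permutation p = 0.1). Sox17, Gata2 and Tal1 were then higher by 1.12, 1.32 and 1.56, and Fli1, Lmo2 and Ets1 differed by -0.72, -0.79 and -1.12, also without overlap (exact permutation p = 0.1). Against Kdr and against the mean of the 12 endothelial markers, Tal1 was higher by 0.71 and 0.78. There its groups overlapped (exact permutation p = 0.2 for both), whereas Sox17 and Gata2 stayed higher without overlap.

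A change of reference shifts all factors by the same amount and leaves their order as it was. Relative to Ptprc, Lmo2 had a ratio of -3.86, -4.06 and -3.80 in saline mice and -3.77, -3.93 and -3.91 in PD mice, and the groups overlapped (difference 0.03, exact permutation p = 0.8). Fli1 differed by 0.10 and Ets1 by -0.30, both without overlap (exact permutation p = 0.1). The other 7 factors were higher by 1.28 for Ets2, 1.39 for Sox7, 1.67 for Erg, 1.69 for Sox18, 1.94 for Sox17, 2.14 for Gata2 and 2.38 for Tal1, each without overlap (exact permutation p = 0.1).

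**Figure D3:**
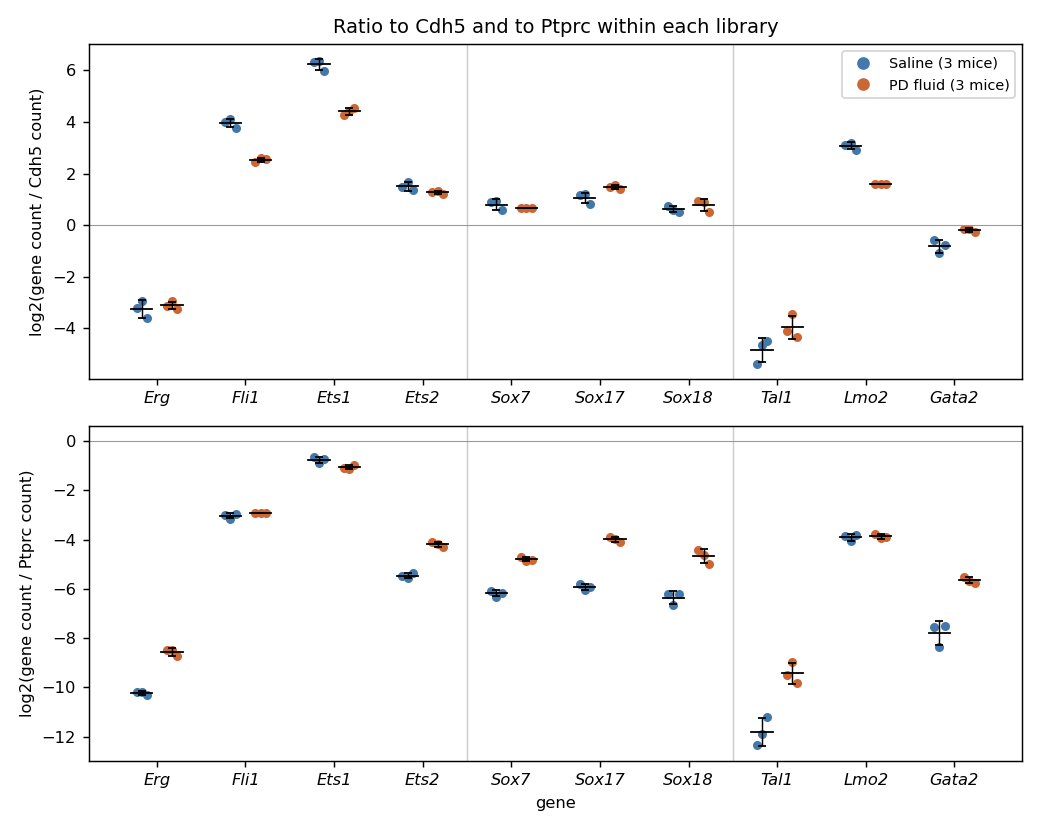
Log2 ratio of each factor's count to that of Cdh5 (upper panel) and of Ptprc (lower panel) within each library, with 0.5 added to every count, in 3 saline mice (blue) and 3 PD mice (orange); bars are means and error bars SDs. Erg, Sox7 and Sox18 overlapped between the groups in the upper panel, and Lmo2 in the lower.

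Levels of different genes were compared per length with the authors' FPKM. In saline mice Ets1 led with 287 ± 9.98 FPKM (SD, n = 3 mice), followed by Lmo2 with 102 ± 4.8 and Fli1 with 95.3 ± 5.24, whose values overlapped. Below these came Sox17 at 23.3 ± 1.53, Sox18 at 17.9 ± 2.41, Ets2 at 13.8 ± 0.839, Sox7 at 9.87 ± 0.480, Gata2 at 3.94 ± 1.3, Erg at 0.785 ± 0.152 and Tal1 at 0.207 ± 0.0954 FPKM, each separated from the next. In PD mice the order was kept but for the exchange of Fli1 (68.2 ± 0.696) and Lmo2 (64.7 ± 2.92), whose values overlapped there too. Ets1 was at 150 ± 6.88, Sox17 at 56.9 ± 2.81, Sox18 at 36.1 ± 6.36 and Erg at 1.91 ± 0.132 FPKM (SD, n = 3 mice). The distance between the scarcest and the most abundant factor narrowed from both ends.

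The make-up of each group of factors shifted accordingly. Ets1 held 73.0%, 72.7% and 71.4% of the summed FPKM of the 4 ETS factors in saline mice and 61.3% to 63.5% in PD mice. Ets2 took 3.23% to 3.66% in saline mice and 7.95% to 9.28% in PD mice, and Erg 0.167% to 0.252% and 0.742% to 0.860%. Among the SOXF factors, Sox17 had 42.9% to 48.4% in saline mice and 49.9% to 54.2% in PD mice, while Sox7 had 19.0% to 19.8% and 14.0% to 16.2%. Lmo2 made up 95.1% to 97.2% of the sum of Lmo2, Gata2 and Tal1 in saline mice and 82.9% to 85.7% in PD mice. The summed level of the SOXF factors was 51.1 ± 3.5 FPKM in saline mice and 109 ± 9.24 FPKM in PD mice (SD, n = 3 mice), and that of the ETS factors 397 ± 14.0 and 241 ± 6.49 FPKM. These sums rest on the authors' FPKM and were not tested.

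**Figure D4:**
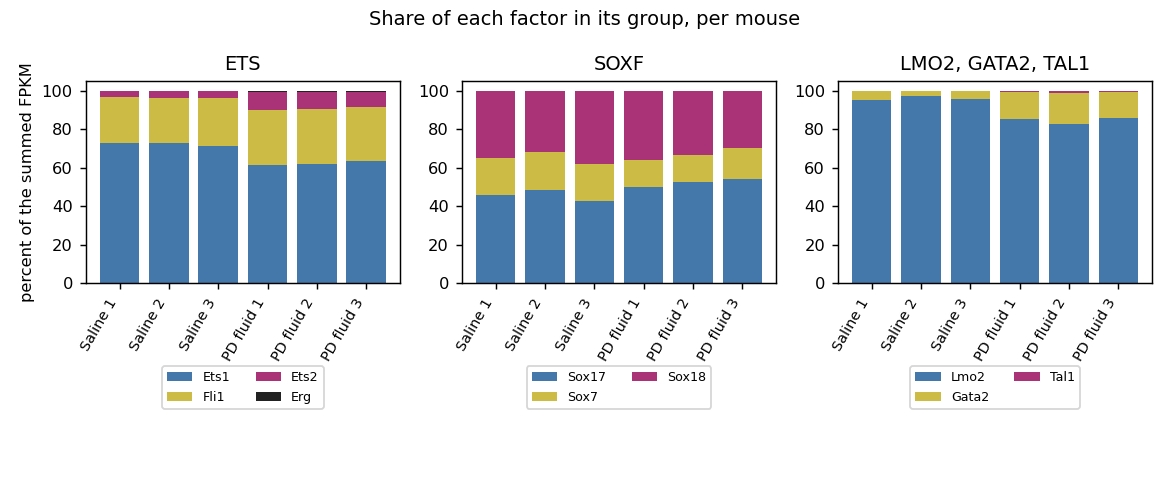
Share of each factor in the summed FPKM of its group in each mouse, in percent, for the ETS factors, the SOXF factors, and Lmo2, Gata2 and Tal1. The share of Ets1 was 71.4% to 73.0% in saline mice and 61.3% to 63.5% in PD mice.

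The other genes of these families and pathways were taken from lists. Their counts stand beside 31.1% higher and 27.8% lower over all tested genes. Of 16 tested genes in the list of other ETS factors, 8 were higher, 4 lower and 4 not called, with a median of 0.23 on the log2 scale. Etv1, an ETS factor that responds to growth factor signalling, rose by 1.3 ± 0.16 (SE; edgeR, adjusted p = 4.2e-05). The ETS repressor Erf was at 0.304 ± 0.182 CPM in the saline group and 1.24 ± 0.420 CPM in the PD group (SD, n = 3 mice; edgeR, adjusted p = 0.0043). Erf needed its PD values to pass the filter on low counts, which favours a call of higher. Spic, a factor of red pulp macrophages and B cells, changed by -0.64 ± 0.17 (SE; edgeR, adjusted p = 0.0081), and Elf1 by -0.38 ± 0.06 (SE; edgeR, adjusted p = 5e-04). The remaining lower genes were Elf2 and Elk4, at -0.31 and -0.35. With the endothelial scaling 2 of the 16 were higher and 13 lower.

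Among 7 tested SOX factors outside the SOXF group, 3 were higher and 0 lower. Sox13 rose from 6.56 ± 2.56 to 24.6 ± 7.20 CPM (SD, n = 3 mice; edgeR, adjusted p = 0.00017), and Sox6 from 0.719 ± 0.155 to 2.49 ± 0.874 CPM (SD, n = 3 mice; edgeR, adjusted p = 0.0014). The third, Sox9, a factor of chondrocytes and ductal epithelium, was near the detection limit in saline mice, at 0 to 0.0922 CPM. In PD mice it was at 0.545 to 1.10 CPM. Its PD values alone took it past the filter on low counts. A call of lower was therefore not open to it, and its p-value is left out. Of 4 tested GATA factors, Gata6 rose by 1.48 ± 0.27 (SE; edgeR, adjusted p = 0.00078). Gata5, also called higher, was at 0 to 0.231 CPM in the saline group and 0.587 to 0.957 CPM in PD mice. Like Sox9, Gata5 passed the filter through its PD values alone, so its p-value is left out. Gata3 of T cells and Gata1 of red cell precursors did not pass, with changes of 0.09 ± 0.10 and -0.40 ± 0.36 (SE; edgeR, adjusted p = 0.46 and 0.35).

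The list for the complex of TAL1, LMO2 and GATA2 was divided: of 16 tested genes, 3 were higher, 5 lower and 8 not called, with a median of -0.03. It is broad and, beside partners proper, holds factors related to blood and endothelial progenitors such as Hhex and Myb. All its genes are called partners here for short. Ldb1, the scaffold that joins LMO2 to its partners, was at 102 ± 10.2 CPM in the saline group and 107 ± 13.2 CPM in the PD group (SD, n = 3 mice; edgeR, adjusted p = 0.60). Lyl1, the paralogue of TAL1, fell by 0.45 on the log2 scale (SE 0.09; edgeR, adjusted p = 0.0015), and Hhex fell by 0.67 (SE 0.07; edgeR, adjusted p = 1.6e-05), the direction of Lmo2. Myb changed by -0.55 ± 0.14 (SE; edgeR, adjusted p = 0.0073), and Runx1 and Ssbp2 each by -0.21 ± 0.08 (SE; edgeR, adjusted p = 0.032 and 0.035). On the higher side were Zfpm2, a GATA cofactor of mesenchymal cells, at 2.27 ± 0.37 (SE; edgeR, adjusted p = 0.00036), the corepressor Cbfa2t3 at 0.71 ± 0.15 (SE; edgeR, adjusted p = 0.002) and Lmo4 at 0.31 ± 0.08 (SE; edgeR, adjusted p = 0.0062). The count of lower partners was 3 instead of 5 when the first saline mouse or the second PD mouse was left out, and 13 with the endothelial scaling.

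Genes of ECs that ETS and SOX factors are known to regulate were mostly higher. Of 28 tested, 25 were higher, 1 lower and 2 not called, with a median of 1.02. Over all tested genes, 31.1% were higher and 27.8% lower. Whether more EC RNA in the libraries or a change within ECs lay behind these calls was not tested. Rasip1, which organizes the vascular lumen, was at 31.1, 15.8 and 30.1 CPM in the saline group and at 123, 98.1 and 84.7 CPM in PD mice, a change of 1.99 ± 0.22 (SE; edgeR, adjusted p = 2.2e-05), and the receptor Tie1 rose by 1.65 ± 0.17 (SE; edgeR, adjusted p = 1.4e-05). Cdh5 rose by 0.82 ± 0.11 (SE; edgeR, adjusted p = 0.00011), Kdr by 0.98 ± 0.06 (SE; edgeR, adjusted p = 1.9e-07) and the Notch ligand Dll4 by 1.39 ± 0.13 (SE; edgeR, adjusted p = 5.6e-06). S1pr1, a sphingosine receptor that lymphocytes also carry, was the lower gene, at -0.23 ± 0.06 (SE; edgeR, adjusted p = 0.0046), and Pecam1 and Icam2 did not pass (0.13 ± 0.06 and 0.00 ± 0.07; edgeR, adjusted p = 0.07 and 0.98). All 12 scaling markers belong to this list, so its counts of 12 higher and 5 lower under the endothelial scaling are not independent of that scaling.

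The list of other endothelial transcription factors was mostly higher, with 18 of 24 genes higher, 1 lower and 5 not called and a median of 0.69. It also holds Heg1, which codes for a membrane receptor and not a transcription factor. Heg1 was among the genes not called, at 0.16 ± 0.08 (SE; edgeR, adjusted p = 0.11). Prox1, given above, and Foxc2, a factor of lymphatic valves that was at 0.511 ± 0.130 CPM in the saline group and 2.02 ± 0.670 CPM in the PD group (SD, n = 3 mice; edgeR, adjusted p = 0.0014), were the most changed. Id1 rose by 1.57 ± 0.09 (SE; edgeR, adjusted p = 8.3e-08) and Epas1 by 1.07 ± 0.14 (SE; edgeR, adjusted p = 7.3e-05), both named after their values were seen. The exception was Mef2c, which is abundant in B cells as well as in ECs. It was at 484, 492 and 463 CPM in the saline group and at 213, 222 and 233 CPM in PD mice, a change of -1.11 ± 0.06 (SE; edgeR, adjusted p = 8.9e-08). Under the endothelial scaling 5 of the 24 were higher and 10 lower. The part of the EC content of the libraries in these counts was not tested.

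**Figure D5:**
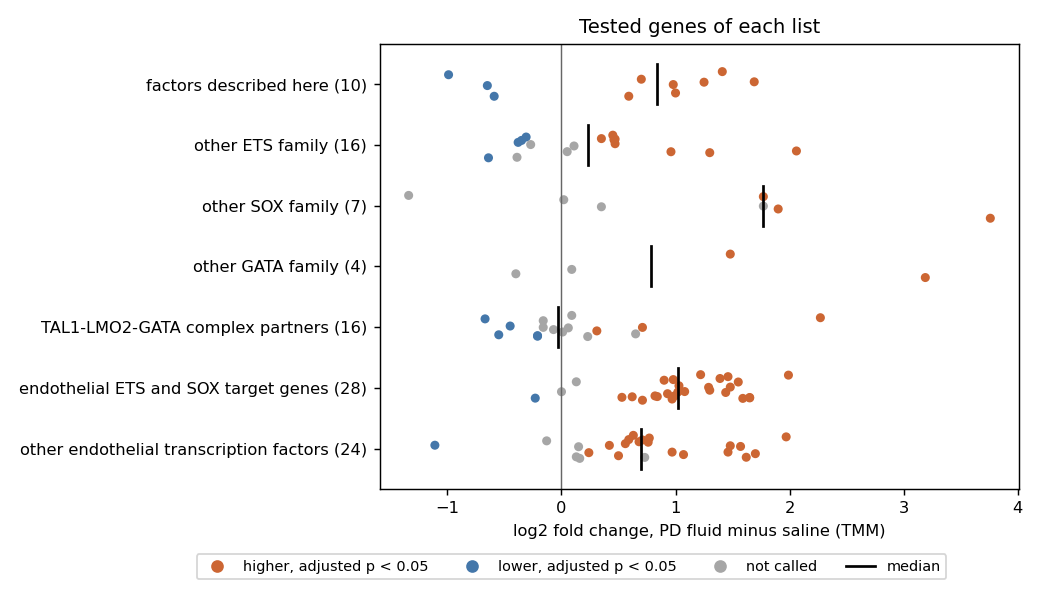
Log2 fold change in PD mice over saline mice after TMM scaling (x axis) for each tested gene of 7 lists, with the number of genes in brackets. Points are coloured by the call, and black bars are list medians, which ran from -0.03 for the partners of the complex to 1.77 for the other SOX factors.

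By pattern over the 6 libraries, measured as the mean absolute difference of centred log2(CPM + 1), Fli1 and Lmo2 were each other's nearest factor at 0.0526, and so were Ets2 and Sox7 at 0.0763 and Sox17 and Gata2 at 0.149. Outside the 10 factors, the nearest of the tested genes with a mean of at least 1 CPM were Stxbp2 to Fli1, Shisa5 to Lmo2, Tmem243 to Ets1 and Dpp7 to Ets2. The nearest to Sox7 was Slc35f6, to Sox17 the immunoglobulin segment Ighv6-6, to Sox18 Tbc1d2b and to Gata2 Gna12. For the scarce factors Erg and Tal1, where adding 1 flattens the pattern, they were Trgc2 and Apobr. This likeness describes 6 libraries that differ mainly by treatment.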

How the data were processed

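RNA from peritoneal ECs of 3 saline and 3 PD mice was sequenced after oligo(dT) enrichment, with NEBNext Ultra libraries on an Illumina NovaSeq. The authors deposited raw read counts per gene and, in the same table, FPKM values that they normalized to gene length and depth. The submitters' processing notes name fastp 0.18.0, Bowtie2 2.2.8, HISAT2, StringTie 1.3.1 and RSEM, and the genome build is not given in the sources used here. The table also holds the authors' group means, log2 ratio, p-value and FDR, which were not used. 0 columns of sample values were left unmatched. Identifiers of 22128 of 22183 genes matched GENCODE M21.

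Groups came from the sample labels. Counts were filtered with filterByExpr, scaled by TMM and tested with edgeR 4.0.16 (quasi-likelihood, Benjamini-Hochberg adjustment, threshold 0.05) under R 4.3.3, without covariates. Alternatives were DESeq2 1.42.0, limma-voom (limma 3.58.1), other scalings, no filter, the replicate number as a block, a fold of at least 2 and leaving out each mouse. A lowess correction for GC content was chosen after seeing the data. Ratios used log2 of counts with 0.5 added and two-sided exact permutation tests in scipy 1.17.1. The code was tested on simulated data. Promoters came from RefSeq.

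The 10 factors and all gene lists were chosen with earlier results of these data known. Genes named were the 10 factors in full, from each other list the 2 called genes per direction that changed most at a mean of at least 10 counts (all called genes where 5 or fewer were counted), the gene nearest in pattern to each factor among genes of at least 1 CPM, and Cdh5, Pecam1 and Ptprc. Total counts of 21973426 to 26374292 per mouse set the precision, which is lowest for Tal1 and Erg. Kdr, Dll4, Id1, Epas1, Heg1, Ldb1, Lyl1, Elf2, Elk4, Runx1, Ssbp2, Lmo4 and single markers beside a factor were named after their values were seen. The erythroid markers are not reported here as a whole list.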

Additional observations from a re-analysis of the deposited data

How the results depend on the processing

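All 10 factors kept their direction and stayed past the threshold under the replicate block, DESeq2, limma-voom, no filter, upper-quartile and relative log expression scaling, the GC correction, and in all 6 fits without 1 mouse. In those 6, Tal1 ran from 1.43 to 2.02, Sox18 from 0.90 to 1.12 and Erg from 0.91 to 1.06 on the log2 scale. The endothelial scaling reversed Ets2 (-0.32). It also turned Sox7 to -0.21, which was not called (edgeR, adjusted p = 0.051). Erg, Sox18 and Tal1 kept their direction and no longer passed the threshold. Against Pecam1 in place of Cdh5, the ratios of Ets2 and Sox7 were 0.46 and 0.57 higher instead of lower, those of Erg and Sox18 no longer overlapped (0.85 and 0.87), and the other 6 moved without a change of direction; the cause was not tested. With the endothelial scaling, calls over all genes were 1258 higher and 9883 lower, 2 factors were higher, other ETS genes were 2 higher and 13 lower, 3 SOX genes were lower, GATA genes were 1 higher and 2 lower, partners 1 and 13, targets 12 and 5, and other endothelial factors 5 and 10. That scaling holds the 12 markers level on average. Since 11 of the 12 were higher in PD mice with TMM, most genes moved lower. Requiring at least 2-fold left 2158 higher and 252 lower genes, 4 higher and 0 lower factors, 2 and 0 other ETS genes, 1 and 0 partners, 15 and 0 targets and 7 higher endothelial factors. Lower partners were 3 under the replicate block and with no filter, and 3 to 5 with a mouse left out. With a mouse left out, lower SOX genes were 0 to 1 and lower endothelial factors 1 to 2, in both cases reaching the higher number without the second saline mouse, and the GC correction also gave 2 lower endothelial factors. The cause of these shifts was not tested. The replicate numbers are not stated to pair the mice. Same-numbered mice deviated with r = 0.19, 0.07 and -0.27, and differently numbered ones with r from -0.41 to 0.36. With 3 mice per group these values cannot decide whether mice were paired. The replicate block gave 4242 higher and 3667 lower genes. Depth limits Tal1 and Erg most, at 11 to 23 and 43 to 50 counts in saline mice.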

Other observations

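The authors' annotation of transcription factor families gives Lmo2 no family and places the other 9 factors in larger ones. Of 20 tested ETS genes, 10 were higher and 6 lower in PD mice, and of 36 genes with a high mobility group box, the family of the SOX factors, 9 were higher and 17 lower. Of 57 basic helix-loop-helix genes, the family of Tal1, 31 were higher and 8 lower, and of 12 GATA zinc finger genes 4 and 2. Families outside these differed in their split: 37 of 50 bZIP genes were higher and 3 lower, 10 of 14 nuclear receptors (THR-like) were higher and 0 lower, and among 484 C2H2 zinc finger genes 65 were higher and 163 lower. These counts are from edgeR's quasi-likelihood test with TMM scaling, beside 31.1% higher and 27.8% lower over all tested genes, and no family was tested as a set.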
